A study of Mus musculus with 6 samples.

Results

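The genes described here are 40 that encode the actin assembly machinery a macrophage uses to push its membrane around a particle. They are the actin monomers, the Arp2/3 complex and its WASP and WAVE activators, proteins that bind monomers or cap, sever and bundle filaments, coronins, Ena/VASP proteins and formins, a myosin heavy chain and the linkers of filaments to the membrane. The list came from knowledge of the pathway, and its members were found on the array by the RefSeq accession of each probe. All 40 had at least 1 named probe, out of 20283 named genes on the array, and for all 40 the probe used was well above background on all 4 arrays, so the filter on dim probes removed none of them. Of the members listed, Diap1 is the older name of Diaph1, and the current symbol is used below.

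The cells were bone-marrow-derived macrophages of C57BL/6 mice aged 6 to 8 weeks, labelled as polarized to M2, the alternatively activated state, by an agent that the labels do not name. One group was kept for 6 h in complete DMEM and the other for 6 h in complete DMEM with WGP, whole glucan particles, which are yeast cell walls made mostly of beta-glucan that macrophages recognise and engulf. No allele, transgene or further treatment is given for either group, and the labels do not say whether replicates came from separate cultures or animals, and p-values therefore cover the spread among these arrays, which may be technical. Total RNA was hybridised to 1-colour Agilent arrays, and each group has 3 deposited files. In both groups the file of replicate 3 had the raw spot signals of replicate 1 at all 44397 spots, so replicates 1 and 2 are the independent arrays and n = 2 per group throughout.

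Replicate 1 of both groups lay on 1 slide and replicate 2 on another, and on each slide medium held position 1 while WGP held position 3, so treatment and position cannot be told apart. On the medium arrays 50.7% and 46.6% of probes were well above background, and on the WGP arrays 46.6% and 45.0%. As a check of the cell type, all 13 macrophage markers with a named probe were well above background on all 4 arrays, 5 of them called higher with WGP and 4 lower. Each array lacked signal well above background for defining markers of dendritic cells (Flt3, Xcr1, Clec9a and Cd209a), stroma (Lum, Pdgfra and Pdgfrb), T and B cells (Cd3d, Cd3g and Ms4a1) and platelets and red cells (Itga2b and Klf1). Other markers of these lists were well above background on all 4 arrays. They were 3 of 9 for dendritic cells (Siglech, Ccr7 and Zbtb46) and 3 of 10 for stroma (Col1a1, Col1a2 and Dcn). For lymphocytes they were 2 of 9 (Cd3e and Lck), and for platelets and red cells 2 of 8 (Pf4 and Hba-a1). Of the neutrophil markers 5 of 9 were well above background on all 4 arrays (Camp, Csf3r, Elane, S100a8 and S100a9), and Ltf and Ngp on none. The summed signal of each list, relative to the array's 75th percentile, was 81.6 to 122 in medium and 202 to 215 with WGP for 9 dendritic cell markers, 108 to 122 and 105 to 110 for 9 neutrophil markers, 10.8 to 15.3 and 11.7 to 12.3 for 10 stromal markers, 15.2 to 16.2 and 12.4 to 18.2 for 9 lymphocyte markers, and 6.76 to 8.87 and 29.9 to 35.2 for 8 platelet and red cell markers. The dendritic and platelet sums were thus higher with WGP, but each was made up mostly of 1 gene, Siglech and Pf4. The sum of the 13 macrophage markers was higher too, 3774 to 3833 in medium and 5282 to 5560 with WGP. It was made up mostly of Lgals3, which was called higher, and Csf1r, which was not called. The median change of the 13 was -0.011 on the log2 scale. Of the dendritic markers that could be tested, Siglech (1.08 ± 0.22) and Ccr7 (0.85 ± 0.20) were called higher and Batf3, with 1 of 2 WGP arrays well above background, lower. Of the platelet and red cell markers Pf4 was called higher and Hba-a1 and Epor lower. Epor was well above background on neither WGP array, so it entered the test only through medium, the group in which it was high. The part of these cells in the results was not tested. In bulk RNA, fewer cells of a type and less RNA per cell cannot be told apart.

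Actin filaments grow by adding monomers at one end and are steered by where new filaments start. The Arp2/3 complex starts a branch on the side of an existing filament when WASP or WAVE, themselves switched on by the small GTPases CDC42 and RAC, touch it, while formins and Ena/VASP proteins extend unbranched filaments. Profilin and thymosin hold the monomer pool, cofilin and gelsolin cut old filaments, capping protein stops growth, and in phagocytosis these steps together build the cup that closes around the particle.

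Promoter sequence is shown for the 3 members with the largest rise and the member with the lowest change among those with an entry in the RefSeq promoter table (build GRCm38.p6), because these genes mark the ends of the range of responses. Each run is the 250 bases before the transcription start, written 5′ to 3′ on the gene's own strand. Capitals mark matches to 3 motifs searched on both strands. These were the CArG box bound by serum response factor (SRF), the factor known for driving actin genes, the AP-1 site TGACTCA, and the NF-kappaB site. The motifs and genes were chosen with the results known. The windows are chr17:6782781-6783030 on the minus strand for Ezr, chr11:120348496-120348745 on the minus strand for Actg1, chr7:19271855-19272104 on the minus strand for Vasp and chr11:103170888-103171137 on the plus strand for Fmnl1.
Ezr: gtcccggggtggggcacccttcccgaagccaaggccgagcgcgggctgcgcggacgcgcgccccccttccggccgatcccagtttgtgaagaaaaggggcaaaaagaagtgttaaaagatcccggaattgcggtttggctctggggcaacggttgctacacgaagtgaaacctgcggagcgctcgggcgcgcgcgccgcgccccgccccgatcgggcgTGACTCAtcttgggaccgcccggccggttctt
Actg1: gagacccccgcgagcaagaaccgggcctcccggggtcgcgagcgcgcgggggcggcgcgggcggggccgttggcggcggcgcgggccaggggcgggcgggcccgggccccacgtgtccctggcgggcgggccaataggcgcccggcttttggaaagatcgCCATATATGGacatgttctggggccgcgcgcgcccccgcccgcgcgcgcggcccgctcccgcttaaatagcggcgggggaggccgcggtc
Vasp: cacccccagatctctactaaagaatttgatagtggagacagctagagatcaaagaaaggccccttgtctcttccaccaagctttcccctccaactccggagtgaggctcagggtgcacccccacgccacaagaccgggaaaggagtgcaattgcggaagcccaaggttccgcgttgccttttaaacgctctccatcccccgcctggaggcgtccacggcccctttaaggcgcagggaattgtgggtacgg
Fmnl1: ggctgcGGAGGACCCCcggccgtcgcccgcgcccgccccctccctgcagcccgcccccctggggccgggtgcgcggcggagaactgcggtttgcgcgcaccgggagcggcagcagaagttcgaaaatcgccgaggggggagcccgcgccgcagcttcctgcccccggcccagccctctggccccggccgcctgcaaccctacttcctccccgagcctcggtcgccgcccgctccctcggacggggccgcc
Actg1 held a CArG box 90 to 81 bases before its start, Ezr an AP-1 site 32 to 26 bases before its start, and Fmnl1 an NF-kappaB match 244 to 235 bases before its start, none of which overlapped another match. In the Vasp window none of the 3 motifs was found. The table held 42 promoters of 34 members, and 2 of these promoters (4.76%) held a CArG box, those of Actg1 and Arpc4, against 1.47% of all 32851 promoter windows of this length. AP-1 was found in 1 member promoter (2.38%, against 4.46% of all) and the NF-kappaB motif in 6 (14.3%, against 7.25%), which belong to 5 genes, Abi1, Arpc5, Coro1c, Fmnl1 and Wasl. A match describes letters in the window and does not show that a factor binds there.

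More of the actin assembly genes were higher with WGP than lower, from the actins themselves to the linkers Ezr and Msn, while Was, Wipf1, Wasf2 and the formin Fmnl1 fell. Of 40 members, 23 passed an adjusted p of 0.05 in limma, 19 of them higher with WGP and 4 lower. Over all 10947 genes tested, 40.5% were called, 23.2% higher and 17.4% lower, while the members' shares were 57.5%, 47.5% and 10.0%. The members had a median change of 0.35 on the log2 scale, against 0.028 for all genes, and 33 of 40 had a positive change. The median SE of a change was 0.10 in the members and 0.12 over all genes, and a smaller SE lets a smaller change pass. At least 2-fold changes past the threshold made up 5 of 40 members (12.5%), near the 14.7% of all genes. In what follows, a level is the log2 processed signal of a gene's brightest probe relative to the 75th percentile of its array, and a change is WGP minus medium on that log2 scale, with its SE.

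**Figure D1:**
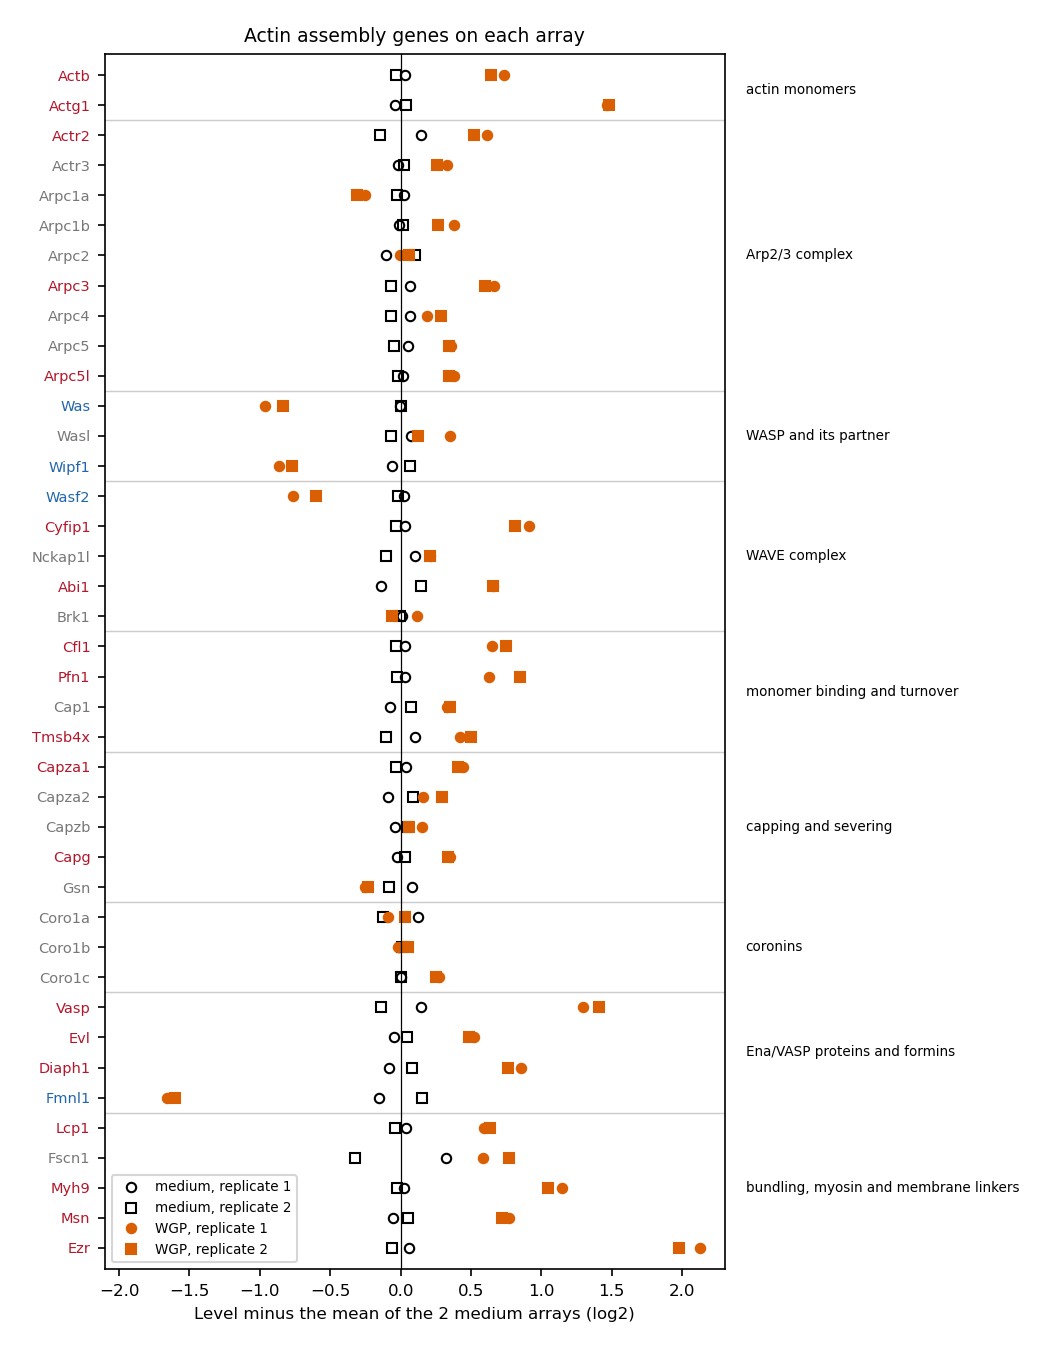
Level of each of the 40 genes on every array, as the log2 difference from the mean of the 2 medium arrays, in order of role. Gene names in red passed an adjusted p of 0.05 as higher with WGP, in blue as lower, in grey not at all. The filled WGP points lie apart from the open medium points in 36 of 40 genes, beside 75.1% of all genes tested.

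Both actin monomer genes rose. Actb, the cytoplasmic beta-actin that is often used as a reference gene, had levels of 10.72 and 10.66 in medium and 11.43 and 11.34 with WGP, a change of 0.69 ± 0.099 (adjusted p = 0.0107). Actg1, the cytoplasmic gamma-actin, had levels of 7.43 and 7.51 in medium and 8.94 and 8.95 with WGP. Both WGP arrays lay above both medium arrays for each gene, and Actg1 rose 2.78-fold (1.47 ± 0.095, adjusted p = 0.00234) against 1.61-fold for Actb. The 95% intervals of the changes, 0.42 to 0.96 for Actb and 1.21 to 1.73 for Actg1, did not overlap. The promoter window of Actg1, printed above, is 1 of the 2 member windows with a CArG box. Actb had no promoter entry, so it was not searched and the 2 actin genes cannot be compared on this point. All 5 probes of Actg1 were called higher, with changes between 0.96 and 1.47. Actin genes are nearly identical in their coding parts, and whether probes detect transcripts of the other actin could not be checked here. The muscle actins that could be tested did not pass, with changes of -0.011 ± 0.15 for Acta2, 0.034 ± 0.12 for Actg2 and -0.61 ± 0.31 for Acta1. Of the other members, 9 had a larger rise than Actb and the rest a smaller rise, no call or a fall.

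The Arp2/3 complex, a stable assembly of several subunits, had a median change close to that of all members. Of its 9 genes, 3 rose and the other 6 did not pass, and the median change was 0.32. Arpc3 had levels of 5.21 and 5.07 in medium and 5.80 and 5.74 with WGP (0.63 ± 0.10, adjusted p = 0.0148). The gene of the actin-related protein ARP2, Actr2, was at 2.34 and 2.05 in medium and 2.81 and 2.72 with WGP (0.57 ± 0.14, adjusted p = 0.0373), with no overlap between the groups. Arpc5l, the alternative form of the ARPC5 subunit, was at 0.62 and 0.59 in medium and 0.98 and 0.94 with WGP and changed by 0.36 ± 0.093 (adjusted p = 0.043). The other subunits did not pass. Actr3, the ARP3 gene, changed by 0.30 ± 0.095, Arpc1b by 0.32 ± 0.099, Arpc4 by 0.24 ± 0.11 and Arpc5 by 0.35 ± 0.097 (adjusted p = 0.0504, just outside the threshold). For Arpc2 the change was 0.027 ± 0.12, with a 95% interval of -0.29 to 0.35 and overlapping arrays. The paralogous pair Arpc1a and Arpc1b had changes of opposite sign, -0.28 and 0.32, with unadjusted 95% intervals of -0.54 to -0.024 and 0.050 to 0.59 that did not overlap, although neither passed alone. The contrast was smaller with normexp, at -0.12 and 0.12 with 75th percentile scaling and -0.13 and 0.25 with quantile normalization.

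Of the WASP genes and their partner, 2 of 3 fell. Was, the blood-cell activator WASP that is mutated in Wiskott-Aldrich syndrome, had levels of 2.59 and 2.60 in medium and 1.64 and 1.76 with WGP. Both WGP arrays lay below both medium arrays, a fall of 0.90 ± 0.10 or 1.87-fold lower (adjusted p = 0.00626). Wipf1, which encodes the WASP-interacting protein WIP that binds WASP and protects it from degradation, fell with it. Its levels were 1.85 and 1.98 in medium and 1.05 and 1.14 with WGP, a fall of 0.82 ± 0.11 (adjusted p = 0.00856), and its second probe was called lower too (-0.49). The widely expressed relative N-WASP, Wasl, did not pass (0.24 ± 0.13, adjusted p = 0.209), with a 95% interval of -0.11 to 0.59 that lies above that of Was (-1.18 to -0.63).

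Within the WAVE complex, which links active RAC to Arp2/3, the nucleation-promoting subunit and its partners moved apart. Wasf2, the WAVE2 subunit that contacts Arp2/3, was at 5.34 and 5.30 in medium and 4.55 and 4.72 with WGP and fell by 0.68 ± 0.11 (adjusted p = 0.0137). All 3 of its probes were called lower, with changes of -0.53 to -0.70. Cyfip1, the subunit that binds RAC, went the other way, with levels of 3.59 and 3.53 in medium and 4.47 and 4.37 with WGP, a 1.82-fold rise (0.86 ± 0.099, adjusted p = 0.00669). The adaptor subunit Abi1 was at -1.16 and -0.87 in medium and -0.36 and -0.36 with WGP and rose by 0.65 ± 0.13 (adjusted p = 0.0248). Nckap1l, the blood-cell HEM1 subunit, changed by 0.21 ± 0.12 and the small subunit Brk1 by 0.027 ± 0.11 with overlapping arrays, and neither passed. The group thus held 2 rises, 1 fall and 2 genes not called.

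Of the genes that supply and recycle monomers, 3 of 4 rose. Pfn1, profilin, which loads monomers for growth, had levels of 6.14 and 6.09 in medium and 6.74 and 6.97 with WGP and changed by 0.74 ± 0.12 (adjusted p = 0.0146). Cfl1, the filament-severing cofilin, had levels of 8.30 and 8.23 in medium and 8.92 and 9.01 with WGP (0.70 ± 0.099, adjusted p = 0.0106). The monomer-sequestering thymosin Tmsb4x was at 7.81 and 7.61 in medium and 8.13 and 8.21 with WGP (0.46 ± 0.12, adjusted p = 0.043). For these 3 genes both WGP arrays lay above both medium arrays, and Tmsb4x had the smallest of the 3 changes. Cap1, which recharges monomers released by cofilin, was higher by 0.34 ± 0.10 without passing (adjusted p = 0.0636).

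Of the capping and severing genes 2 of 5 rose and the other 3 did not pass, with a median change of 0.23. Capza1, the alpha-1 subunit of capping protein, was at 2.10 and 2.03 in medium and 2.51 and 2.48 with WGP (0.43 ± 0.095, adjusted p = 0.0302). Capg, the macrophage capping protein, was at 9.23 and 9.29 in medium and 9.60 and 9.60 with WGP (0.34 ± 0.093, adjusted p = 0.0485), the member closest to the threshold among those called. The capping subunits Capza2 (0.23 ± 0.12) and Capzb (0.10 ± 0.10) and gelsolin, Gsn (-0.24 ± 0.11), did not pass. The 3 coronins, which help debranch filaments and in the case of coronin 1A mark phagosomes, did not pass. Coro1a changed by -0.031 ± 0.13 and Coro1b by 0.015 ± 0.095, both with overlapping arrays and 95% intervals of -0.39 to 0.33 and -0.24 to 0.27, and Coro1c changed by 0.26 ± 0.091 (adjusted p = 0.0856).

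All 4 genes of the elongation group changed, in opposite directions. Vasp, which carries filament ends forward at the membrane, had levels of 1.05 and 0.77 in medium and 2.21 and 2.32 with WGP. The WGP arrays lay well above the medium arrays, a 2.55-fold rise (1.35 ± 0.14, adjusted p = 0.00533). Its relative Evl was at 6.61 and 6.70 in medium and 7.18 and 7.14 with WGP and rose by 0.50 ± 0.097 (adjusted p = 0.0214). Diaph1, the formin mDia1 that RHOA activates, was at 2.68 and 2.84 in medium and 3.62 and 3.53 with WGP (0.81 ± 0.11, adjusted p = 0.00987), and its second probe was also called higher (0.66). Fmnl1, a formin of blood cells found at macrophage podosomes and phagocytic cups, had the lowest change of the 40. Its levels were -0.75 and -0.44 in medium and -2.26 and -2.20 with WGP, which is 3.10-fold lower with WGP (-1.63 ± 0.14, adjusted p = 0.00384), with both WGP arrays still above background. The size of this fall depended on the processing. Alternative fits replaced the background correction by normexp on the raw median signals, with a constant of 50 added. They were not run without the constant, so the effects of correction and constant cannot be told apart. In these fits the change of Fmnl1 was -0.36 (75th percentile scaling) or -0.44 (quantile normalization), still called lower. Was, Wipf1 and Wasf2 then had larger falls than Fmnl1, with Was at -0.89 and -0.87.

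Of the genes that bundle filaments, pull on them or tie them to the membrane, 4 of 5 rose. Ezr, ezrin, which links filaments to membrane proteins, had the largest change of the 40, with levels of 1.18 and 1.06 in medium and 3.25 and 3.10 with WGP. That is a 4.14-fold rise (2.05 ± 0.11, adjusted p = 0.00187). Moesin, Msn, the ezrin relative abundant in leukocytes, rose less, with levels of 5.31 and 5.42 in medium and 6.13 and 6.09 with WGP (0.75 ± 0.100, adjusted p = 0.00915). The heavy chain of non-muscle myosin IIA, Myh9, was at 5.11 and 5.05 in medium and 6.23 and 6.13 with WGP, a 2.14-fold rise (1.10 ± 0.099, adjusted p = 0.00418). Lcp1, the leukocyte bundler L-plastin, was at 5.04 and 4.96 in medium and 5.59 and 5.63 with WGP (0.61 ± 0.096, adjusted p = 0.0132), and both of its probes were called higher. Fscn1, the bundler fascin, had levels of -1.75 and -2.40 in medium and -1.49 and -1.31 with WGP. The medium arrays lay farther apart than the WGP arrays (SD 0.46 against 0.13), and its change of 0.68 ± 0.25 did not pass (adjusted p = 0.0989). Fascin is also known as a product of mature dendritic cells, whose markers did not move together. Ccr7 (0.85 ± 0.20, adjusted p = 0.037) and Siglech were called higher, Batf3 was called lower and Zbtb46 was not called. The part of such cells was not tested.

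**Figure D2:**
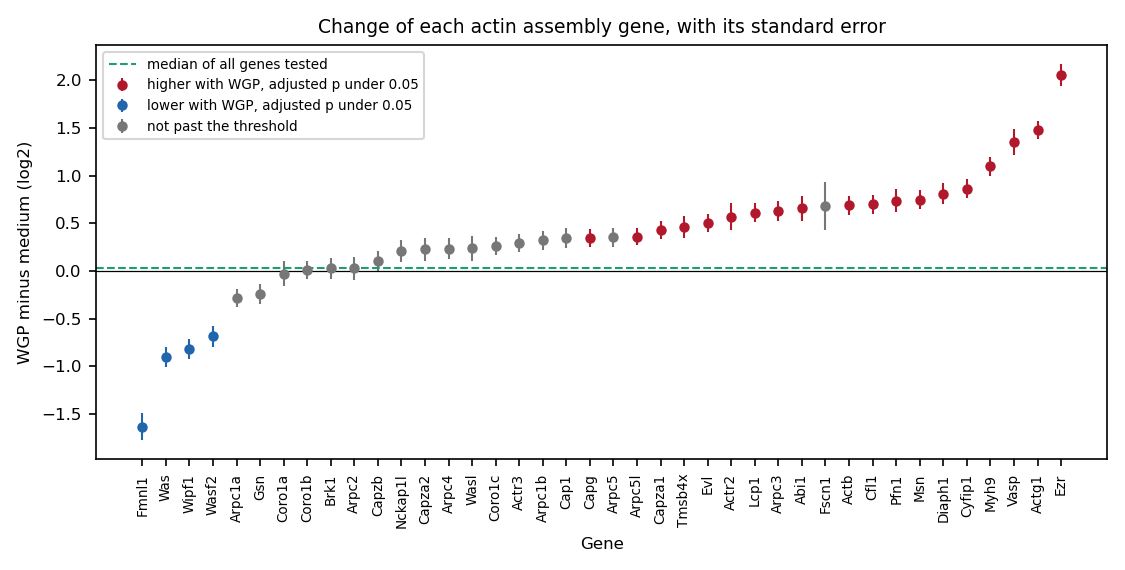
Change of each of the 40 genes (WGP minus medium, log2) in rising order, with the SE of the fit as bars and the median of all genes tested (0.028) as a dashed line. Red, blue and grey points were called higher, called lower or not called, and the range runs from -1.63 for Fmnl1, which is at -0.36 or -0.44 after normexp, to 2.05 for Ezr.

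A small set of calls held under every alternative. Actg1, Cyfip1, Vasp, Myh9 and Ezr (higher) and Was and Fmnl1 (lower) passed in all 15 alternative fits in which every gene had 1 value, with adjusted p up to 0.0492. This holds for the calls and not for the sizes, since Fmnl1 moved from -1.63 to -0.36 after normexp with 75th percentile scaling. Under that setting Actr2 moved to 0.31, Arpc5l and Capza1 to 0.23, Tmsb4x to 0.22 and Capg to 0.15, and these 5 lost their calls, while Abi1 (0.28) and Lcp1 (0.39) kept theirs. Actb moved to 0.41 with quantile normalization and kept its call. With the slide as a replicate block, 19 members were called, 15 higher and 4 lower, against 37.3% of all genes, and the calls of Arpc5l, Tmsb4x, Capza1 and Capg were lost (adjusted p of 0.0534 to 0.0828). Leaving out 1 array lowered the count to 16 without medium replicate 1, 13 without medium replicate 2, 10 without WGP replicate 1 and 11 without WGP replicate 2, where 30.0%, 26.1%, 20.7% and 20.6% of all genes were called. Arpc5l, Tmsb4x, Capza1, Capg and Evl lost their calls whichever array was left out. Actr2, Arpc3 and Lcp1 lost theirs without medium replicate 2 or either WGP array, Pfn1 without either medium array or WGP replicate 2, Wasf2 without either medium array or WGP replicate 1, and Abi1 without medium replicate 1 or either WGP array. Actb lost its call without WGP replicate 1 or WGP replicate 2 (adjusted p from 5.1e-05 to 0.0696 over the 15 alternatives), Cfl1 without WGP replicate 2, and Diaph1 and Msn without WGP replicate 1. Among the fits without 1 array, Fscn1 was the only gene to gain a call, without medium replicate 1 (change of 1.00). Other alternatives added calls too. Gsn was called lower with normexp and 75th percentile scaling (-0.41), normexp and quantile normalization (-0.39) and quantile normalization alone (-0.38). Arpc1b was called higher with normexp and quantile normalization. Median scaling added Actr3, Arpc1b, Arpc5 and Fscn1 as higher, and a filter for signal above background on all arrays added Arpc5 and Cap1. With no filter on dim probes 7 members were called, the same as those that passed everywhere, against 7.56% of 20274 genes.

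Each slide carried 1 array of either group and gives a change without a test. All 23 called members moved the same way on both slides, as did 36 of all 40. The calls were made from these same arrays, so a called gene would mostly agree in sign between slides. This agreement is therefore no separate check of the calls, and no share over all genes is given for it. Ezr changed by 2.07 on slide 1 and 2.04 on slide 2, Actg1 by 1.51 on slide 1 and 1.44 on slide 2, Fmnl1 by -1.50 on slide 1 and -1.76 on slide 2 and Was by -0.96 on slide 1 and -0.84 on slide 2. The arrays of the 2 groups did not overlap for 36 of 40 members, beside 75.1% of all genes tested. The exceptions were Arpc2, Brk1, Coro1a and Coro1b. Fscn1 differed most between slides, with 0.26 on slide 1 and 1.09 on slide 2.

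**Figure D3:**
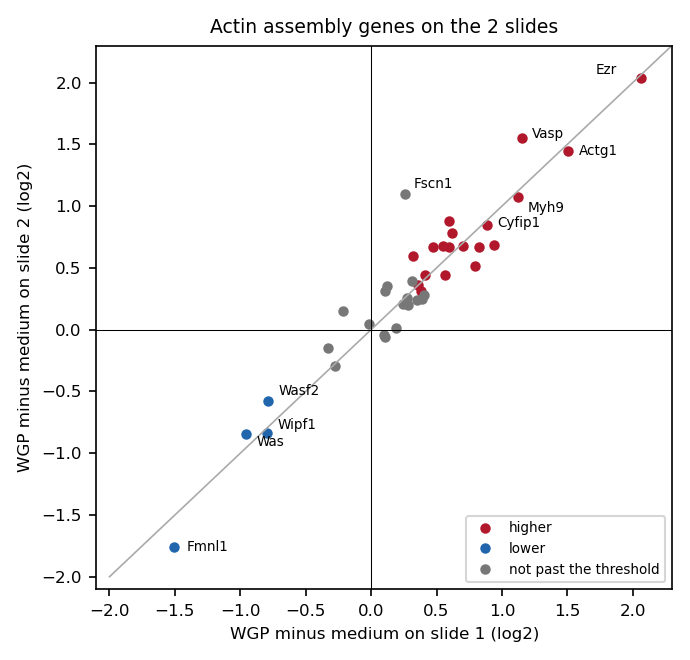
Change of each of the 40 genes on slide 1 (horizontal) and slide 2 (vertical), as WGP minus medium on the log2 scale, with the line of equality. Ezr and Fmnl1 lie at the ends of the line, the 4 genes called lower are negative on both slides, and Fscn1 lies farthest above the line.

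Several members had more than 1 probe, which gives a check on the probe chosen. The 40 members had 61 probes in all, of which 59 passed the filter, and in a fit with every probe as its own feature 30 of the 59 (50.8%) were called, beside 34.2% of all 18442 probes kept. In 10 of the 12 members with several kept probes, all probes had the same sign. The exceptions were Arpc3, where the 3 probes gave changes of 0.63, 0.41 and -0.13, and Capza1, where they gave 0.43, 0.26 and -0.23, and for both genes the brightest probe alone was called. Cfl1 had 2 of 3 probes called higher, the third changing by 0.40. The averages of a gene's probes did not pass for Arpc3 and Capza1 and passed for the other called members.

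**Figure D4:**
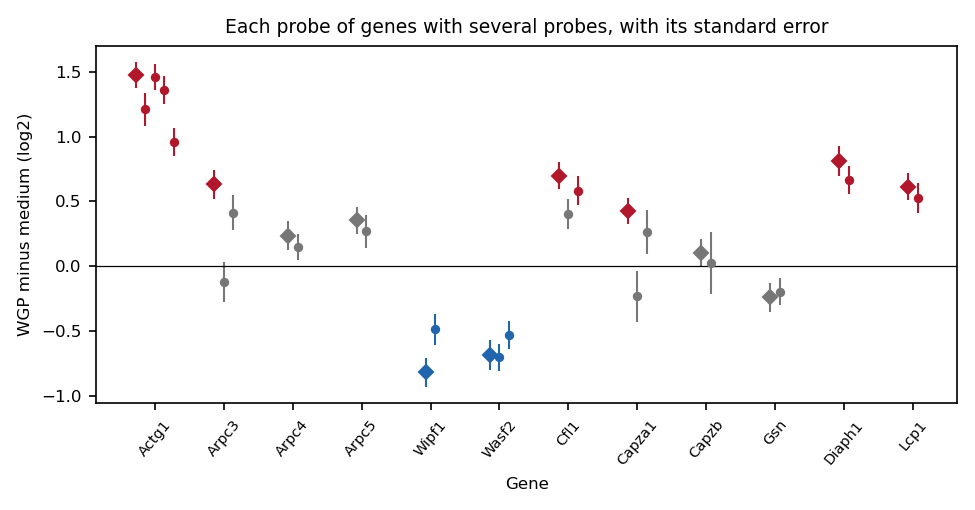
Change (WGP minus medium, log2) of every probe that passed the filter, for the 12 genes with several, with the SE as bars. Diamonds mark the brightest probe, which stands for the gene elsewhere, and red, blue and grey mark probes called higher, lower or not called, with all 5 probes of Actg1 red and all 3 of Wasf2 blue.

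The wider actin pathway was described with lists of relatives that exclude the 40. Among 26 tested genes of nucleation and branching, 8 rose and 3 fell (median change 0.077), so that 42.3% were called, near the 40.5% of all genes. Pstpip2, an F-BAR protein of macrophages, rose 4.11-fold (adjusted p = 0.0019), the cortactin-like Hcls1 rose 2.16-fold (adjusted p = 0.00806) and the WAVE complex subunit Abi3 rose 1.87-fold (adjusted p = 0.00954). The F-BAR protein gene Fnbp1 (-1.23 ± 0.15, adjusted p = 0.00756), Pstpip1, whose product binds WASP (-0.98 ± 0.14, adjusted p = 0.0104), and Washc1, of the WASH complex of endosomes (-0.37 ± 0.092, adjusted p = 0.0387), were the 3 that fell. Wasf1 and Wasf3, the other WAVE genes, did not pass (-0.16 ± 0.13 and -0.35 ± 0.18).

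Several other formins rose. Of 12 formin and Ena/VASP relatives, 5 rose and 2 fell (58.3% called, against 40.5% of all genes), with a median of 0.26. Inf2, a formin that also severs filaments, had levels of 2.28 and 2.41 in medium and 5.67 and 5.54 with WGP, a 9.55-fold rise (adjusted p = 0.00129). Fmnl2, the close relative of Fmnl1, rose 7.40-fold (adjusted p = 0.00129), and its levels were -1.93 and -2.05 in medium and 0.97 and 0.83 with WGP. Fmnl3, the remaining FMNL formin, rose by 1.27 ± 0.094 (adjusted p = 0.00298). Daam2, a formin of the DAAM family, is counted among the 5, but it was above the background limit on both WGP arrays and on only 1 medium array, so it entered the test through the group in which it was high, and its levels were -2.70 and -3.61 in medium and -1.93 and -1.83 with WGP. The 3 FMNL genes thus changed in different directions, with 95% intervals of -2.02 to -1.25 for Fmnl1, 2.58 to 3.19 for Fmnl2 and 1.01 to 1.52 for Fmnl3. These intervals hold for the main processing only. With normexp the change of Fmnl1 was -0.36 or -0.44, outside its interval. Fmnl2 and Fmnl3 were dimmer than Fmnl1 in medium, and their changes with normexp are not given. The 2 that fell were Fmn2 (-0.64 ± 0.12, adjusted p = 0.0221) and Apbb1ip, the RAP1 effector RIAM (-0.55 ± 0.095, adjusted p = 0.0167).

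Monomer-binding, capping and severing relatives had more falls than rises, 7 against 3 of 21 tested (47.6% called, against 40.5% of all genes), with a median of 0.061. Wdr1, which aids cofilin, rose 2.40-fold (adjusted p = 0.0032), Tmsb10 changed by 0.52 ± 0.11 (adjusted p = 0.0255) and Dstn, the cofilin relative destrin, by 0.42 ± 0.10 (adjusted p = 0.039). Eps8, which caps and bundles filaments, was at least 2.62-fold lower with WGP and the cofilin phosphatase gene Ssh2 at least 2.28-fold lower. Neither gene was well above background on the WGP arrays, so both entered the test through the group in which they were high and are counted among the falls on that footing, and such a bound divides the mean of the bright group by that of the dim one, where each dim array counts at the lowest signal still measured above background on it, or at the gene's own signal if that was higher. Crosslinkers and membrane linkers were the list with the most rises, 14 of 26 with 5 falls (73.1% called, against 40.5% of all genes) and a median of 0.48. Marcksl1, which binds filaments at the membrane, rose 4.53-fold (adjusted p = 0.0016), the actin-binding PDZ-LIM protein gene Pdlim7 rose 4.14-fold (adjusted p = 0.0028) and the crosslinker alpha-actinin 1, Actn1, rose 2.46-fold (adjusted p = 0.00348). In the other direction, the scaffold gene Iqgap2 was lower by at least 3.70-fold, again a gene that entered through medium alone, and the adhesion linker Parvg was 2.10-fold lower (adjusted p = 0.0119).

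Of 22 myosin, light chain and tropomyosin genes, 5 rose and 3 fell (median 0.18), and the 36.4% called lay below the 40.5% of all genes. Tropomyosin Tpm4 rose 3.70-fold (adjusted p = 0.00235), Myl12a, a regulatory light chain of the myosin whose heavy chain is MYH9, rose 2.50-fold (adjusted p = 0.0072), and Myo1d, a single-headed membrane myosin, was higher by at least 4.06-fold, having entered the test through the WGP arrays alone. Myo7a (3.94-fold lower) and Myo18a (2.35-fold lower) fell (adjusted p = 0.00241 and 0.00301). Srf itself did not pass (0.23 ± 0.13, adjusted p = 0.233), and 7 of the 9 tested genes of the SRF list did not pass, with 22.2% called against 40.5% of all genes. The 2 that rose were its cofactor Mrtfb, 2.42-fold (adjusted p = 0.00363), and Tagln2, 3.21-fold (adjusted p = 0.00241), while the other cofactor Mrtfa changed by -0.43 ± 0.12 without passing (adjusted p = 0.0524).

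**Figure D5:**
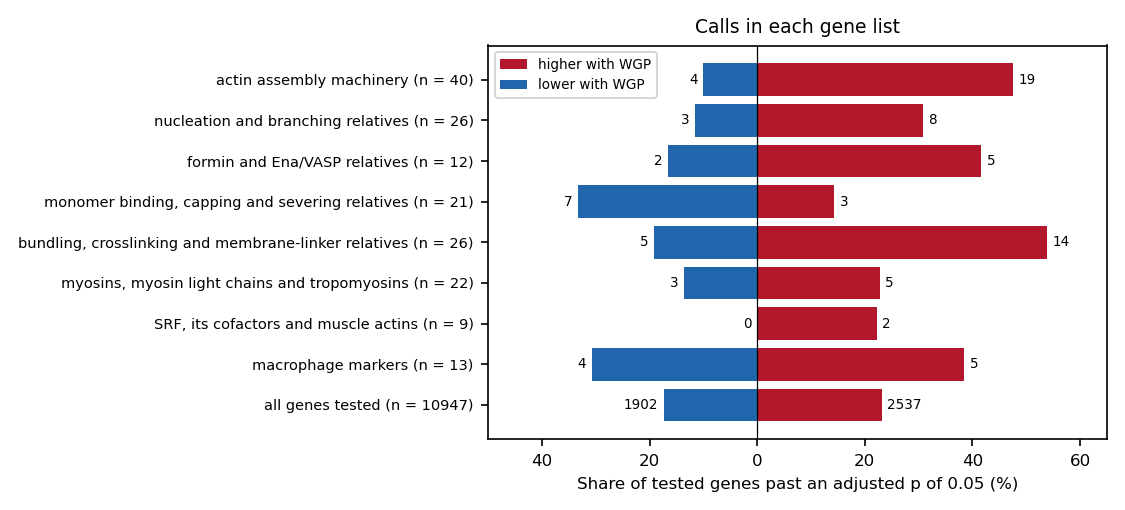
Share of tested genes past an adjusted p of 0.05 in the actin assembly list, in each list of relatives, in the macrophage markers and over all genes tested, with genes higher with WGP to the right and lower to the left. The numbers are gene counts, and the shares to the right are 47.5% for the 40 members and 23.2% for all genes.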

How the data were processed

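Total RNA of macrophages kept with or without WGP was measured on 1-colour (Cy3) arrays. Per the submitters' processing notes, arrays were read with Agilent Feature Extraction 10.7.3. The deposited values are intensities per spot, background-subtracted and spatially detrended per the file headers, with no normalization between arrays. A deposited table of log2 values for all samples, centred per probe by the authors on a baseline that stays unknown, matched the scanner values after centring (correlation 0.99989 over 39394 probes, largest difference 0.0107) and served as an alternative. Its column medians were -0.0145, 0.164 and 0.103 for medium replicates 1 to 3 and 0.0997, 0.130 and 0.100 for WGP replicates 1 to 3.

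The third file of each group was left out. For medium its processed signals equal the average of the other two files (within 0.695%), for WGP those of replicate 1 multiplied by 1.30 (within 0.488%), so neither adds an array. Averaging WGP replicates 1 and 3 was an alternative. Control spots (1377) and outlier spots (118 to 183 per array) were left out, and no spot was saturated. Processed signals were put on the log2 scale, each array's 75th percentile was subtracted, and repeat spots were averaged. A RefSeq name was found for 26761 of 39429 probes (67.87%) by accession in a gene table of GRCm38.p6. The array design is on mm9, so gene coordinates are not given. The filter kept probes that were well above background (at least 0.5 of their spots) on each array of medium, of WGP, or of both. The brightest kept probe stood for each of 10947 genes.

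The test was limma's moderated fit (version 3.58.1, R 4.3.3; lmFit, eBayes, 2 residual and 2.19 prior degrees of freedom) with Benjamini-Hochberg adjustment over all genes tested and a threshold of 0.05, after tests on simulated data. The number of arrays limits the precision. Replicate numbers 1 and 2 are shared between groups and, per the file headers, are slides. Deviations from the group means correlated at 0.14 between arrays of a slide, over 2 pairs, and a fit with slide as replicate block was tried. A list of regulators and some markers are not reported here. The members and lists were chosen with earlier results of these data known. Values on every array are given for members past the threshold. In each list, up to 3 genes per direction with the largest called changes were named. A few further genes (Wasf1, Wasf3, Fmnl3, Srf, Mrtfa and muscle actins) were named after their values were seen.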

Additional observations from a re-analysis of the deposited data

How the results depend on the processing

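The 23 calls among the members (19 higher and 4 lower) and the 4439 over all genes were compared with 16 alternatives. No called member changed direction in any of them. Without the filter on dim probes the counts were 7 members (5 and 2) and 1532 genes, and with every deposited file as its own sample, which counts copied arrays as replicates, 35 members (29 higher) and 7452 genes. Leaving out 1 array gave 10 to 16 members, 7 to 13 of them higher, and 2258 to 3283 genes, with the lone array of the reduced group assumed to vary like those of the other group. With the replicate block there were 19 members and 4086 genes. Normexp with 75th percentile scaling gave 19 members (14 higher and 5 lower) and 4172 genes. Quantile normalization alone gave 19 (14 and 5) and 4199. Normexp with quantile normalization gave 24 members (19 and 5) and median scaling 27 (23 and 4). The 75th percentile of processed signal was 85.8 and 68.6 on the medium arrays and 59.2 and 56.1 on the WGP arrays. Scaling to it therefore raised WGP levels relative to medium. Under median scaling the median change over all genes was 0.19 in place of 0.028, and 72.7% of all calls were higher with WGP in place of 57.2%. The sign of 5 members that were not called turned. Arpc2, Brk1 and Capzb were at -0.082, -0.074 and -0.044 with normexp and 75th percentile scaling and at -0.021, -0.030 and -0.092 with quantile normalization. Brk1 and Capzb were at -0.044 and -0.055 with normexp and quantile normalization, and Coro1a was at 0.13 with median scaling. Leaving out 1 array gave -0.076 to 0.13 for Arpc2, -0.064 to 0.12 for Brk1, -0.15 to 0.093 for Coro1a and -0.022 to 0.051 for Coro1b. The cause was not tested. For single members, direction and side of the threshold were kept in 522 comparisons, a call was lost in 79 and gained in 24, and the sign turned in 15.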
